A study of Arabidopsis thaliana with 9 samples.

Results

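Berberine-bridge FAD oxidase genes encode flavoproteins named after the berberine bridge enzyme of California poppy, and the 10 followed here were read by locus name from 24635 genes measured in Arabidopsis thaliana seedlings. The members were chosen by measured values, because AT1G26390 and AT1G26410, which ranked 12 and 16 of 20277 genes by log2 fold change in the mutant melinoe against Col-0, are among them. The other 8 are their neighbours and relatives. They sit in a cluster of 4 genes (AT1G26390, AT1G26400, AT1G26410, AT1G26420), a cluster of 4 genes (AT1G30700, AT1G30710, AT1G30720, AT1G30730) and a pair of loci on chromosome 4 (AT4G20840, AT4G20860). The TAIR10.1 annotation gives all 10, and 17 further genes, the product name FAD-binding Berberine family protein.

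Enzymes of this family carry covalently bound FAD, and many oxidise an alcohol or an amine and pass the electrons to oxygen, releasing hydrogen peroxide. In Arabidopsis some oxidise fragments of the cell wall. AT4G20840, like its neighbour AT4G20830, is an oligogalacturonide oxidase that acts on pectin fragments, and AT4G20860 is a cellodextrin oxidase that acts on cellulose fragments. AT1G26380, next to the first cluster, is an oxidase of the pathway that makes cyanogenic indole compounds from tryptophan in the response to pathogens. Riboflavin is the vitamin from which cells make FMN and then FAD, the cofactor of these enzymes.

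The study sequenced polyadenylated RNA of whole seedlings in 9 strand-specific libraries, 3 per group. Melinoe seedlings carried an EMS-induced mutation in FMN/FHY (AT4G21470), which encodes a bifunctional riboflavin kinase and FMN hydrolase, and were not treated. Riboflavin seedlings were wild-type Col-0 given riboflavin for 8 h of the dark period, at 0.6 mM per the sample labels and 0.2 mM per the design text. Col-0 seedlings were untreated wild type. All were 6 days old and grew in days of 16 h light and 8 h dark. The labels name 1 melinoe line, state no mock treatment and give no harvest hour for the melinoe and Col-0 plants, so riboflavin and the dark hours cannot be told apart. The 3 libraries of a group are stated to be biological replicates.

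Library totals were 19964397 to 20818004 counts in melinoe, 20677747 to 21103216 in riboflavin and 20972510 to 21421418 in Col-0. Pearson correlations of log2 CPM across genes were 0.995 to 0.9954 within groups and 0.9273 to 0.9715 between groups, as a description of likeness. FMN/FHY averaged 40.7 ± 1.51 TPM in melinoe, 124 ± 1.91 TPM in riboflavin and 47.1 ± 2.27 TPM in Col-0 (SD, n = 3 each). A point mutation need not change transcript level, so this gene does not check the melinoe label. TPM is scaled for transcript length and library size, was computed here from the deposited counts and annotated lengths, and was used for levels. The summed level of the shoot markers CAB1 and RBCS1A was 18140 to 19100 TPM in melinoe, 7191 to 7294 TPM in riboflavin and 23250 to 24260 TPM in Col-0. In bulk RNA of whole seedlings, fewer cells of a type and less RNA per cell cannot be told apart.

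The genes of the first cluster lie on the minus strand of chromosome 1 within 13324 bases, those of the second on the plus strand of the same chromosome within 10182 bases, and AT4G20840 and AT4G20860 on the plus strand of chromosome 4 within 16552 bases. Only AT1G30700 has an intron among the 10, with 2 annotated exons. Their coding lengths run from 1581 to 1659 bases. Identity of coding sequence was 85.5% to 87.4% within the first cluster, 58.8% to 84.8% within the second, 56.2% between AT4G20840 and AT4G20860 and 55.2% to 62.5% between clusters. The longest run of identical bases was 77, between AT1G26390 and AT1G26410, and 66 between AT1G30720 and AT1G30730. Reads that lie inside such a run cannot be assigned to 1 gene, so values of these neighbours carry that uncertainty. The 3′ end of AT4G20860 also shares 18 bases with FAH2 (AT4G20870) on the other strand, and the use of strand in counting is not given in the sources used here.

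The 250 bases before the annotated gene start are shown for 6 members: the whole first cluster, where close relatives differed most in level, the member of the second cluster with the highest level in melinoe, and the member with the highest summed level. The sequences are from RefSeq, build TAIR10.1, on the strand of the gene and 5′ to 3′. They lie at chr1:9131780-9132029 on the minus strand for AT1G26390, chr1:9134875-9135124 on the minus strand for AT1G26400, chr1:9140440-9140689 on the minus strand for AT1G26410, chr1:9143337-9143586 on the minus strand for AT1G26420, chr1:10897675-10897924 on the plus strand for AT1G30720 and chr4:11172372-11172621 on the plus strand for AT4G20860. Capitals mark the W-box, TTGACC or TTGACT on either strand, the site that WRKY transcription factors are known to bind.
AT1G26390: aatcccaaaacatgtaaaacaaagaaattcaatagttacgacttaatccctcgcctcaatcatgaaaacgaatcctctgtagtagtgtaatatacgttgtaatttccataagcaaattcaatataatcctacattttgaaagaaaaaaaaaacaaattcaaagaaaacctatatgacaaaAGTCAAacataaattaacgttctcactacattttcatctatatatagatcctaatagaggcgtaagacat
AT1G26400: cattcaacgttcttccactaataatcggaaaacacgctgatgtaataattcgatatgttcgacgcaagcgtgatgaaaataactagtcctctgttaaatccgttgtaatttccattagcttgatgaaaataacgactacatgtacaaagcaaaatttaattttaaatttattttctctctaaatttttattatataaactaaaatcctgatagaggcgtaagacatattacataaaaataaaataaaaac
AT1G26410: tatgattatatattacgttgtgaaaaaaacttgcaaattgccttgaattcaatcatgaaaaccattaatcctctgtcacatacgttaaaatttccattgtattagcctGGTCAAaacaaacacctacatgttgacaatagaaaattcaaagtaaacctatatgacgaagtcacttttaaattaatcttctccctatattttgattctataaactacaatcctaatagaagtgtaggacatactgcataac
AT1G26420: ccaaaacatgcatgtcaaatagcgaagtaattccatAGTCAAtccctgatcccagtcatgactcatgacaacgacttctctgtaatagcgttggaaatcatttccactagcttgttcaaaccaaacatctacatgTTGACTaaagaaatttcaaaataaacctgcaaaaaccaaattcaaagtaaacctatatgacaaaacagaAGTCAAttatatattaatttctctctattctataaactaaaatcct
AT1G30720: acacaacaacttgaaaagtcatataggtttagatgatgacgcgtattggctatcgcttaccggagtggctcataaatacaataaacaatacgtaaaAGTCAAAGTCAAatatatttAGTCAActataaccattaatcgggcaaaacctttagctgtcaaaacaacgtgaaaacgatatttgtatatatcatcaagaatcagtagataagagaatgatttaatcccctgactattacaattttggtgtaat
AT4G20860: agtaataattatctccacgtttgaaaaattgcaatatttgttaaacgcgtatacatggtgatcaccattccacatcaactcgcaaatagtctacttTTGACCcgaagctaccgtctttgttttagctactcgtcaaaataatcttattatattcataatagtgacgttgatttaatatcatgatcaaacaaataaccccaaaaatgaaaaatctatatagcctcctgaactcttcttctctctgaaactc

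A W-box was found in this window in 7 of the 10 members, in 8 of the 17 other family genes and in 28.4% of 27438 gene promoters of the same length. AT1G26420 and AT1G30720 had 3 each, and 6.2% of all promoters had more than 1. In AT1G30720, matches start 154 and 148 bases before the gene start and so lie next to each other. The windows of AT1G26400, AT1G30730 and AT4G20840 held none. TGACG, the core bound by TGA factors, was in 3 of the 10 members against 18.6% of all promoters, and overlapped no W-box in these members. Neither CACGTG, the G-box, nor the core of the mitochondrial dysfunction motif was in any member window, against 6.5% and 8.0% of all promoters. A match describes letters and is not evidence of binding. The annotated start of AT1G26400 is its coding start, so its window is not placed relative to a transcription start.

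Of the 10 members, 8 were expressed and AT1G26400 and AT1G30710 were at or near 0. AT1G26400 had 1 count in each of 3 libraries, melinoe C, riboflavin B and riboflavin C, and none in Col-0. AT1G30710 had 1 count in melinoe C and none elsewhere. With totals of 3 counts and 1 over the 9 libraries, neither passed the filter on low counts, so no fold is given for either. AT1G26400 lies between AT1G26390 and AT1G26410 and shares 86.6% and 85.5% of its aligned coding bases with them, while those genes had up to 814 and 662 counts in a library. The other 8 members passed the filter on low counts, and all 8 also passed it on the Col-0 libraries alone.

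In every group AT4G20860, the cellodextrin oxidase gene, had the highest mean level of the 10. The order below it differed between groups. In melinoe AT4G20860 and AT1G30720 came first with overlapping libraries, followed by AT1G30730, AT1G30700, AT1G26420, AT1G26390, AT1G26410 and AT4G20840 without overlap between neighbours. In riboflavin AT1G30730 and AT1G30720 overlapped in the next places, and AT1G30700, AT1G26420, AT4G20840, AT1G26390 and AT1G26410 followed without overlap. In Col-0 AT1G30720 and AT1G30730 overlapped, then came AT4G20840, AT1G30700 and AT1G26420, and AT1G26390 and AT1G26410 overlapped at the low end. AT4G20840, the oligogalacturonide oxidase gene, was thus the lowest of the 8 in melinoe, the sixth in riboflavin and the fourth in Col-0. By the mean TPM of each group in the authors' deposited table the order was the same.

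The summed level of the 10 genes was 521.5, 537.9 and 515.7 TPM in the melinoe libraries, 317.5, 315.6 and 321.3 TPM in the riboflavin libraries and 138.7, 140 and 143.3 TPM in the Col-0 libraries. The 3 groups did not overlap, and the melinoe mean was 3.73 times and the riboflavin mean 2.26 times that of Col-0. AT4G20860 gave 26.3% of the sum in melinoe, 44.5% in riboflavin and 41.1% in Col-0. AT1G30720 gave 26.3% in melinoe, 13.6% in riboflavin and 16.6% in Col-0.

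**Figure D1:**
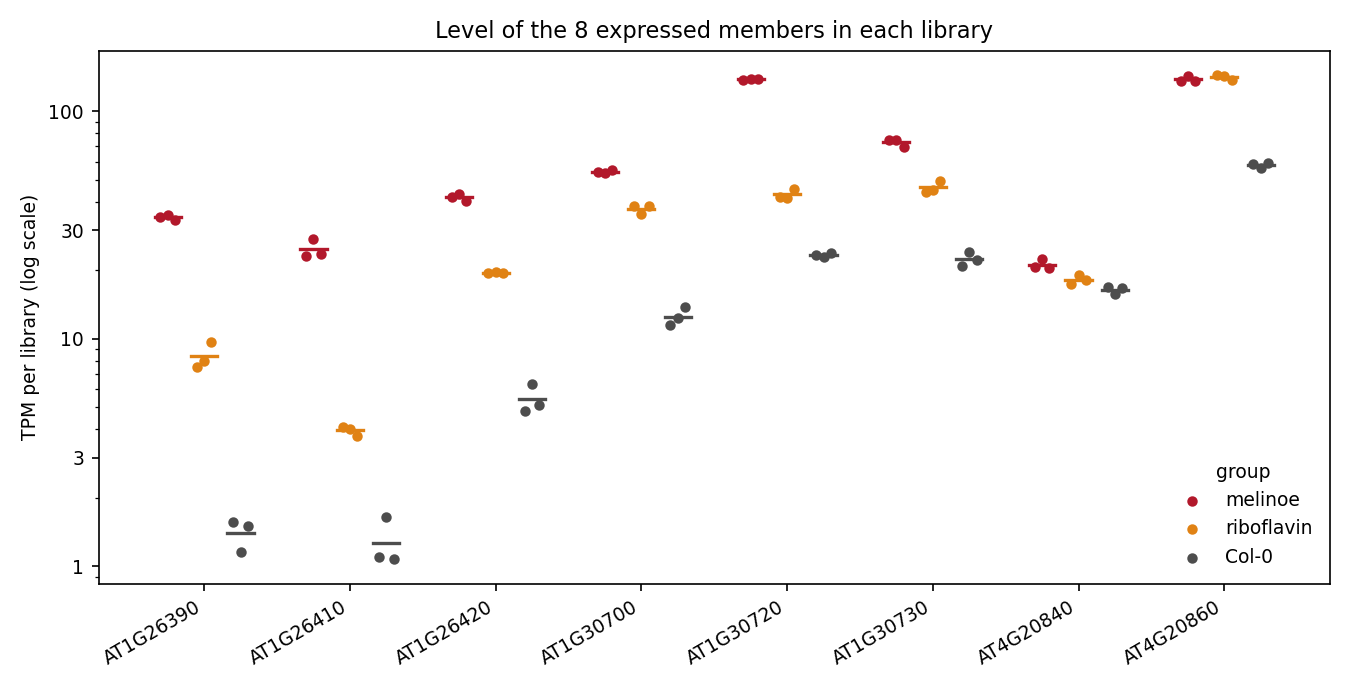
TPM on a log axis for the 8 expressed members, with 1 point per library and a bar at the mean of 3 libraries, for melinoe (red), riboflavin (orange) and Col-0 (grey). AT1G26390 sits between 33.2 and 35.0 TPM in melinoe and between 1.15 and 1.56 TPM in Col-0, whereas AT4G20860 overlaps between melinoe and riboflavin and AT4G20840 moves little.

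The first cluster, whose members have no assigned substrate beyond the family name, held the lowest levels of the 8 genes in Col-0 and, as a ratio, the widest range between groups. AT1G26390 had 34.2, 35.0 and 33.2 TPM in melinoe, 7.55, 7.98 and 9.67 TPM in riboflavin and 1.56, 1.15 and 1.50 TPM in Col-0. All melinoe libraries were above all riboflavin libraries, and these above all Col-0 libraries. Behind these levels lie 771, 814 and 777 counts in melinoe, 172, 183 and 218 in riboflavin and 37, 27 and 35 in Col-0. AT1G26410 had 23.2, 27.4 and 23.6 TPM in melinoe, 4.10, 4.03 and 3.76 TPM in riboflavin and 1.10, 1.64 and 1.07 TPM in Col-0. The order of groups was the same, again without overlap, and the Col-0 levels rest on 27, 40 and 26 counts. AT1G26420 had 42.2, 43.2 and 40.2 TPM in melinoe, 19.5, 19.6 and 19.4 TPM in riboflavin and 4.81, 6.30 and 5.13 TPM in Col-0. It too was separated in all 3 groups, and as a ratio its riboflavin libraries were closer to melinoe than those of AT1G26390 and AT1G26410.

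The second cluster was better expressed in Col-0. AT1G30700 had 53.8, 53.6 and 54.9 TPM in melinoe, 38.2, 35.2 and 38.5 TPM in riboflavin and 11.5, 12.3 and 13.8 TPM in Col-0. AT1G30730 had 74.5, 74.9 and 69.6 TPM in melinoe, 44.3, 44.9 and 49.5 TPM in riboflavin and 20.99, 24.02 and 22.2 TPM in Col-0. For both genes the 3 groups did not overlap and riboflavin lay between melinoe and Col-0. AT1G30720 had 137, 138.4 and 138.2 TPM in melinoe, 42.2, 41.7 and 45.5 TPM in riboflavin and 23.4, 22.8 and 23.8 TPM in Col-0. Its Col-0 libraries overlapped those of AT1G30730 in level, while its melinoe libraries stood above all of that gene's.

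The chromosome 4 members, the genes with known wall-fragment substrates, differed from each other. AT4G20860 had 136, 143 and 135.4 TPM in melinoe, 144.3, 143.2 and 136.8 TPM in riboflavin and 58.5, 56.1 and 59.0 TPM in Col-0. Melinoe and riboflavin overlapped, and every library of both was above all Col-0 libraries. AT4G20840 had 20.6, 22.5 and 20.4 TPM in melinoe, 17.4, 19.0 and 18.2 TPM in riboflavin and 16.8, 15.7 and 16.8 TPM in Col-0. The groups did not overlap, but the lowest riboflavin library was above the highest Col-0 library by less than the SD of 0.799 TPM within riboflavin.

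Riboflavin-treated Col-0, given riboflavin for 8 h of dark, was compared with untreated Col-0, where riboflavin and the dark hours cannot be told apart. All 8 tested members were higher by edgeR's quasi-likelihood test at a Benjamini-Hochberg adjusted p under 0.05. The call for AT4G20840 was lost under several settings. Over all 20356 genes tested, 74.2% were called and 36.8% were called higher, so being called higher was common. The libraries did not overlap for any of the 8, as for 37.5% of all genes in this direction. Of the 8, 6 were called with a log2 fold change of at least 1, against 7.7% of all genes. The median log2 fold change of the 8 was 1.44, against -0.00 over all tested genes. The Col-0 libraries in this comparison are those against which AT1G26390 and AT1G26410 were chosen, so the test is not free of that choice.

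With riboflavin AT1G26390 and AT1G26420 of the first cluster had the highest log2 fold changes of the 8. AT1G26390 rose by 2.58 ± 0.146 (log2 ± SE, adjusted p = 6.29e-15, edgeR), and AT1G26420 rose by 1.86 ± 0.0857 (adjusted p = 7.31e-17, edgeR). AT1G26410 rose by 1.65 ± 0.167 (adjusted p = 1.31e-09, edgeR), which is within its error of AT1G30700 in the second cluster. The larger errors of AT1G26390 and AT1G26410 go with their low Col-0 counts. In the second cluster AT1G30700 rose by 1.58 ± 0.0629 (adjusted p = 2.52e-18, edgeR), AT1G30730 by 1.06 ± 0.0567 (adjusted p = 2.15e-15, edgeR) and AT1G30720 by 0.90 ± 0.0502 (adjusted p = 5.36e-15, edgeR). On chromosome 4, AT4G20860 rose by 1.30 ± 0.0403 (adjusted p = 9.87e-21, edgeR). AT4G20840 was higher by 0.16 ± 0.0619 (adjusted p = 0.0258, edgeR), a change that DESeq2 did not call (adjusted p = 0.0874) and that the authors' deposited table lists with q = 0.104. Its adjusted p was 0.107 without riboflavin B, 0.0504 without riboflavin C, 0.100 without Col-0 B and 0.175 with upper quartile scaling. In the authors' deposited table the other 7 had q under 0.05. A call was common in this comparison, where edgeR called 74.2% of all genes, and the share by the authors' q was not counted.

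In melinoe against Col-0, which sets the untreated mutant beside its wild type, the members are described without a test because values of this comparison chose them. The log2 fold change was 4.65 for AT1G26390, 4.33 for AT1G26410 and 3.01 for AT1G26420, the 3 highest of the 8. It was 2.62 for AT1G30720, 2.17 for AT1G30700 and 1.76 for AT1G30730. On chromosome 4 it was 1.31 for AT4G20860 and 0.42 for AT4G20840. The libraries of melinoe and Col-0 did not overlap for any of the 8, all higher in melinoe, where 28.3% of all 20277 genes were higher without overlap. The median was 2.40, against -0.00 over all tested genes, and 7 of the 8 were at least 1, as were 3.67% of all genes.

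Set beside riboflavin, melinoe was higher in every library for 7 of the 8 members, where 38.4% of all 20577 genes tested were higher without overlap. This contrast uses the melinoe libraries that chose the members and is likewise a description. The log2 difference of melinoe from riboflavin was 2.69 for AT1G26410, 2.07 for AT1G26390, 1.73 for AT1G30720 and 1.15 for AT1G26420. It was 0.71 for AT1G30730, 0.59 for AT1G30700 and 0.27 for AT4G20840. For AT4G20860, whose libraries overlapped, it was 0.02. The log2 fold changes of AT1G26390, AT1G26410 and AT1G30720 against Col-0 were thus far smaller in riboflavin than in melinoe. They were 4.65, 4.33 and 2.62 in melinoe and 2.58, 1.65 and 0.90 in riboflavin. AT4G20860 was higher by nearly the same amount in both, 1.31 in melinoe and 1.30 in riboflavin. Both sets of fold changes share the Col-0 libraries.

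**Figure D2:**
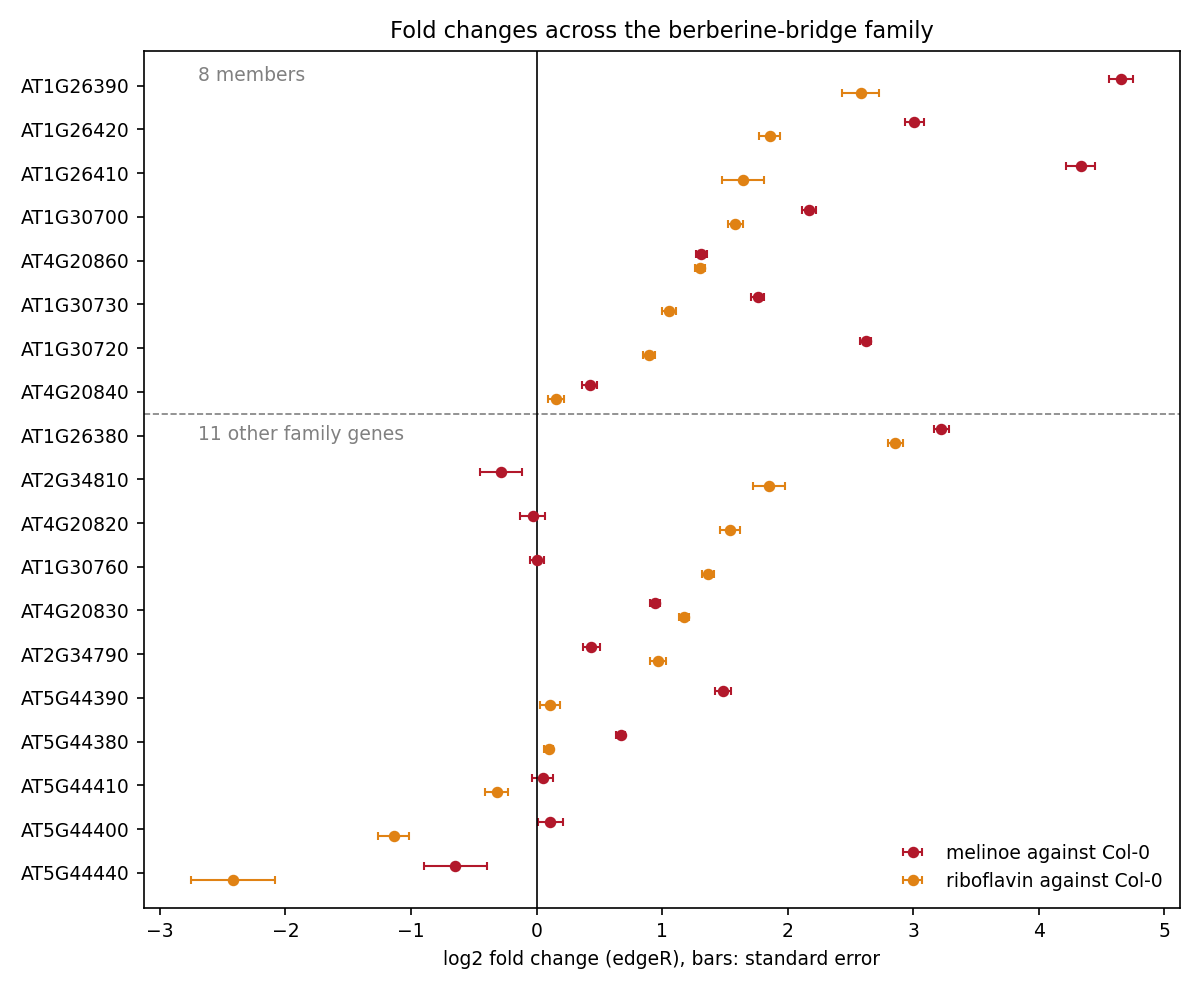
Log2 fold change against Col-0 with its standard error for the 8 tested members (top) and 11 other family genes (bottom), in melinoe (red) and riboflavin (orange). All 8 members, chosen with earlier results of these data known, lie above 0 in both. They run from 0.16 for AT4G20840 with riboflavin to 4.65 for AT1G26390 in melinoe, and the other family genes from -2.42 to 3.23.

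The rest of the family was less uniform. The members were chosen with earlier results of these data known, so this difference is not independent of that choice. Of its 17 other genes, 15 were in the tables and 11 were tested: 7 were higher, 3 lower and 1 not past the threshold with riboflavin (median log2 fold change 0.97), and 5 were higher, 1 lower and 5 not past it in melinoe (median 0.11). Of all genes tested, 74.2% were called and 36.8% called higher with riboflavin, and 50.6% and 25.4% in melinoe against Col-0. AT1G26380, 1444 bases from AT1G26390 with 87.5% identity in coding sequence, had 71.7 ± 1.80 TPM in melinoe, 57.4 ± 1.27 TPM in riboflavin and 7.97 ± 0.266 TPM in Col-0 (SD, n = 3 each). It rose by 3.23 in melinoe (adjusted p = 5.29e-26) and by 2.86 with riboflavin (adjusted p = 7.82e-25, both edgeR). It thus moved with the first cluster in both comparisons, with riboflavin libraries nearer to melinoe than those of AT1G26390.

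AT4G20830, the oligogalacturonide oxidase gene 109 bases from AT4G20840 and 86.5% identical to it in coding sequence, had 279.7 ± 10.3 TPM in melinoe, 339 ± 20.2 TPM in riboflavin and 151 ± 3.10 TPM in Col-0 (SD, n = 3 each). It rose by 0.94 in melinoe (adjusted p = 7.93e-18) and by 1.17 with riboflavin (adjusted p = 1.15e-19, both edgeR), where AT4G20840 had 0.42 in melinoe and 0.16 with riboflavin. AT1G30740, 368 bases from AT1G30730 at the end of the second cluster, averaged 0.264 ± 0.0493 TPM in melinoe, 0.148 ± 0.0670 TPM in riboflavin and 0.173 ± 0.00136 TPM in Col-0 (SD, n = 3 each) and was not tested.

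Some relatives rose with riboflavin and not in melinoe. AT2G34810 was at -0.28 in melinoe (adjusted p = 0.171) and 1.85 higher with riboflavin (adjusted p = 2.66e-13, both edgeR), and melinoe differed from riboflavin by -2.13 (adjusted p = 1.5e-15), a contrast in which 73.3% of all genes were called and 37.7% were called higher. AT4G20820, in the chromosome 4 group, was at -0.03 in melinoe (adjusted p = 0.824) and 1.54 higher with riboflavin (adjusted p = 9.06e-16, both edgeR), a log2 difference of melinoe from riboflavin of -1.57 (adjusted p = 1.46e-17). AT1G30760, a gene of monolignol oxidation named here after its values were seen, was at 0.00 in melinoe (adjusted p = 0.974) and 1.36 higher with riboflavin (adjusted p = 1.11e-19, both edgeR), with a log2 difference of -1.36 (adjusted p = 4.12e-22). AT5G44390, also named after its values were seen, showed the other order, with 1.48 in melinoe (adjusted p = 5.26e-17) and 0.11 in riboflavin (adjusted p = 0.220, both edgeR), and a log2 difference of 1.38 (adjusted p = 1.27e-18). AT5G44440, AT5G44400 and AT5G44410 fell with riboflavin by 2.42, 1.14 and 0.32 on the log2 scale (adjusted p = 3.32e-07, 4.87e-09 and 0.00265, edgeR).

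**Figure D3:**
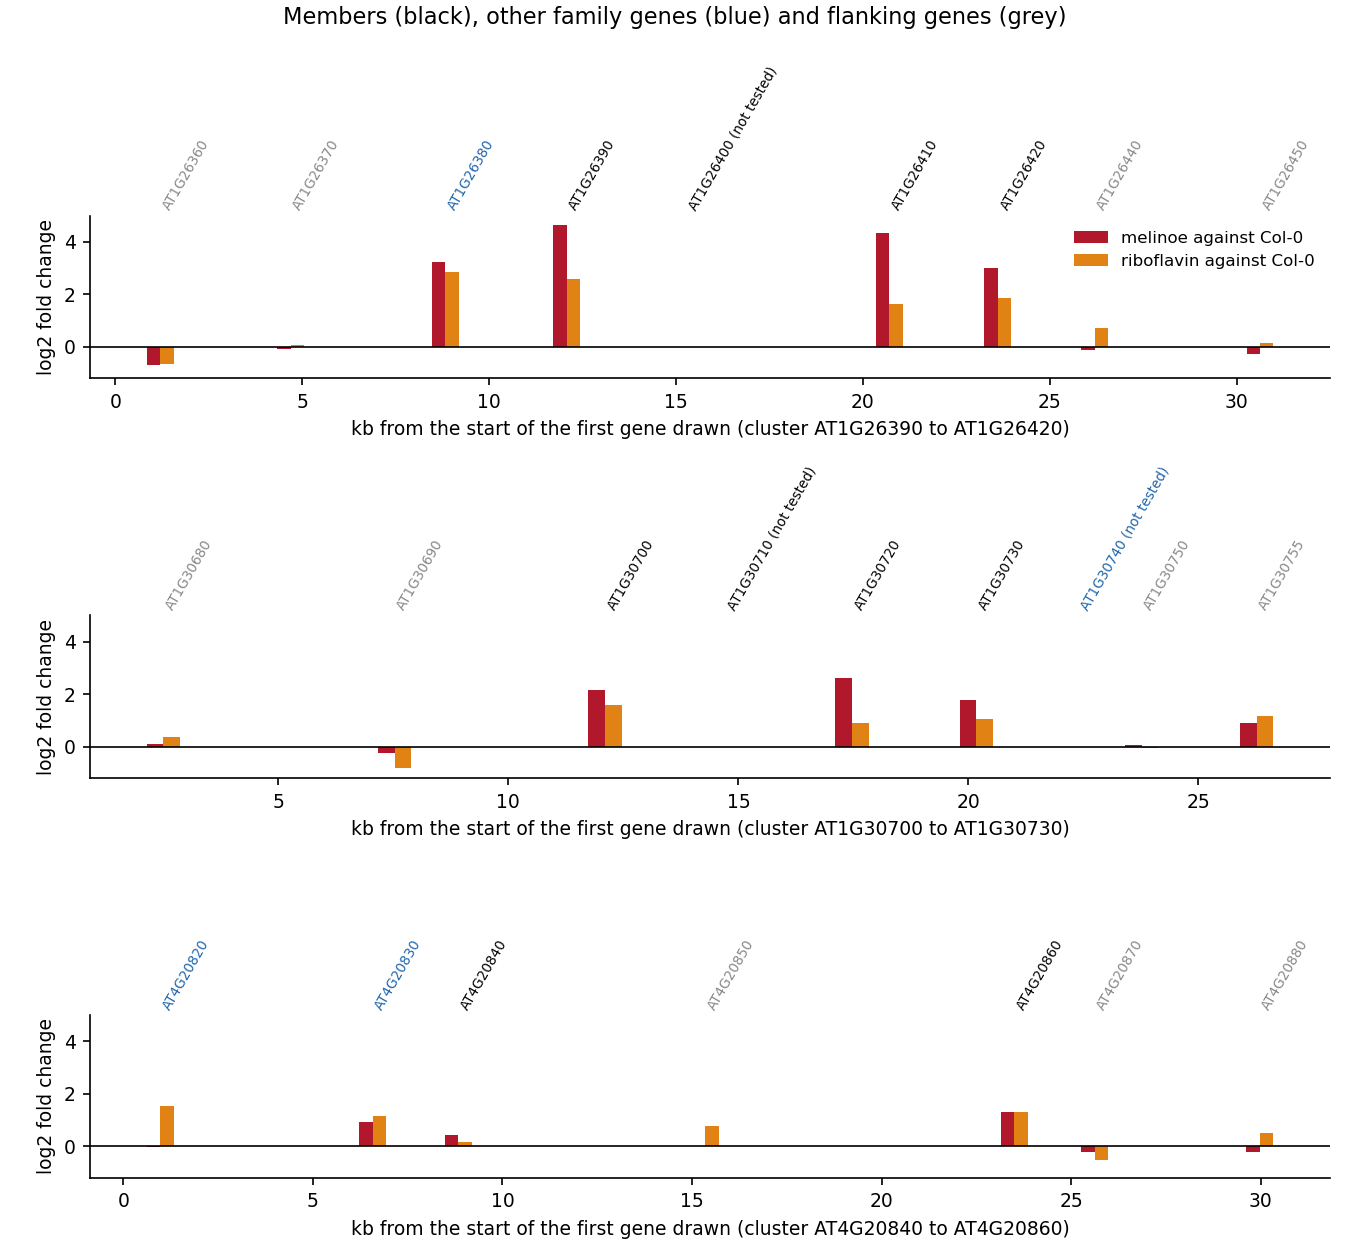
Log2 fold change against Col-0 in melinoe (red) and riboflavin (orange), drawn along each cluster by distance in kb from the first gene drawn, with members named in black, other family genes in blue and flanking genes in grey. AT1G26380, AT1G26390, AT1G26410 and AT1G26420 stand above 1.6 in both comparisons, whereas AT1G26370 on their left is at -0.09 in melinoe and 0.07 in riboflavin.

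The gene whose pattern over the 9 libraries was most like that of AT1G26390 was AT1G26410, measured as the root mean square difference of log2 CPM after the Col-0 mean of each gene is taken off, among 15805 genes (0.626). It was followed by CYP71A12, a cytochrome P450 of indole compound synthesis (0.709), AT5G48430, annotated as a protease family protein (0.824), AT1G26380 (0.826) and AT4G11170, annotated as a disease resistance protein (0.905). AT1G26420 ranked 11. For AT4G20860 the closest were AT1G18390, a protein kinase gene (0.0735), AT3G29034, an uncharacterised gene (0.0743), PCR2 (0.0786), AT5G12420 (0.0961) and AT3G16530, annotated as a lectin (0.0967), and its closest member AT1G30730 ranked 92. These ranks describe these libraries and carry no test. AT1G26390 and AT1G26410 were chosen by their rise in melinoe and the measure includes the melinoe libraries, so their closeness is not independent of that choice.

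AT1G26380 acts in cyanogenic indole synthesis, a defence pathway listed here together with camalexin synthesis. Of the 7 genes listed, 4 were higher and none lower with riboflavin (median 0.27), and 5 were higher and none lower in melinoe (median 1.12). Over all genes tested, 36.8% were called higher with riboflavin and 25.4% in melinoe. CYP71A12 had 117 ± 2.11 TPM in melinoe, 28.0 ± 1.39 TPM in riboflavin and 8.88 ± 1.15 TPM in Col-0 (SD, n = 3 each), and it rose by 3.78 in melinoe (adjusted p = 1.59e-26) and by 1.67 with riboflavin (adjusted p = 1.85e-16, both edgeR). PAD3, the enzyme of the last steps to camalexin, was at -0.12 in melinoe (adjusted p = 0.310) and rose by 2.60 with riboflavin (adjusted p = 4.01e-23, both edgeR), with a log2 difference of melinoe from riboflavin of -2.72 (adjusted p = 3.42e-26). CYP82C2, the hydroxylase of cyanogenic indole synthesis, named after its values were seen, showed the other order, at 2.41 in melinoe (adjusted p = 2.38e-15) and -0.04 with riboflavin (adjusted p = 0.870, both edgeR), a log2 difference of 2.45 (adjusted p = 6.06e-17). GGP1 was at -0.01 in melinoe (adjusted p = 0.826) and rose by 0.89 with riboflavin (adjusted p = 1.61e-18, both edgeR). CYP79B2, which acts at the step from tryptophan, rose by 1.12 in melinoe (adjusted p = 2.09e-19) and by 0.27 with riboflavin (adjusted p = 4.81e-07, both edgeR). CYP71A12 and its close copy CYP71A13 can share reads, so their split is uncertain.

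The elicitor and wall-fragment response, genes known to respond to microbial elicitors or to pectin fragments, moved in both directions. Of 17 genes, 6 were higher and 8 lower with riboflavin (median -0.01), and 8 were higher and 5 lower in melinoe (median 0.10). Over all genes tested, 74.2% were called and 36.8% called higher with riboflavin, and 50.6% and 25.4% in melinoe. CYP81F2, a P450 of indole glucosinolate synthesis, rose by 1.72 with riboflavin (adjusted p = 2.16e-20), the peroxidase gene PER4 by 1.68 (adjusted p = 7.49e-15) and YLS9 by 1.65 (adjusted p = 1.82e-12, all edgeR). In melinoe CYP81F2 rose by 1.96 (adjusted p = 2.41e-21), PER4 by 3.26 (adjusted p = 5.23e-23) and YLS9 by 1.07 (adjusted p = 1.89e-07, all edgeR). The wall-associated kinase gene WAK2, the danger peptide gene PROPEP2 and the transcription factor gene WRKY40 fell with riboflavin by 1.29, 1.27 and 1.12 on the log2 scale (adjusted p = 7.08e-19, 5.02e-07 and 6.87e-19, edgeR). In melinoe WRKY40 fell by 1.52 (adjusted p = 3.84e-21), WAK2 by 0.15 (adjusted p = 0.00657) and PROPEP2 was higher by 0.54 (adjusted p = 0.00340, all edgeR).

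Markers of organs and cell types moved as well. The shoot markers CAB1 and RBCS1A were both lower with riboflavin and in melinoe, and of 8 root markers 5 were lower and 2 higher in each comparison. Over all genes tested, 74.2% were called and 36.8% called higher with riboflavin, and 50.6% and 25.4% in melinoe. Summed root marker level was 3860 to 3953 TPM in melinoe, 3102 to 3239 TPM in riboflavin and 3606 to 3633 TPM in Col-0, nearly all of it from PYK10, which averaged 3752 TPM in melinoe, 3045 TPM in riboflavin and 3456 TPM in Col-0. Summed stomatal and epidermis marker level was 50.6 to 55.2 TPM in melinoe, 24.1 to 26.8 TPM in riboflavin and 40.7 to 44.4 TPM in Col-0, with 1 of 4 lower in riboflavin and 4 of 4 higher in melinoe. The gene lower in riboflavin was ATML1, which averaged 30.6 TPM in melinoe, 11.6 TPM in riboflavin and 26.8 TPM in Col-0. TMM, EPF2 and FMA were not past the threshold with riboflavin (adjusted p = 0.0583, 0.641 and 0.789, edgeR). Summed level of 3 seed storage genes was 10.76 to 11.03 TPM in melinoe, 7.44 to 8.24 TPM in riboflavin and 10.5 to 13.5 TPM in Col-0. No list had a marker at 0 in all libraries of a group. The part of these shifts in the members' values was not tested.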

How the data were processed

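Polyadenylated RNA of 3 groups of 3 libraries was measured in 2 tables, melinoe with Col-0 and riboflavin with Col-0, and the Col-0 libraries are common to both. Per the file headers, the authors deposited expected counts, TPM, log2 fold changes, p-values and q-values. Bowtie2, RSEM, DESeq2 and the TAIR10 build are named in the submitters' processing notes. The design text instead names SOAPnuke 1.5.2 and HISAT2 2.0.4, so the aligner behind the values is not settled. The deposited log2 fold changes, p-values and q-values are the authors' own and were used only where the authors' deposited table is named.

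Joining by locus gave 24635 genes, and 23856 were present in both tables. The 386 genes of only the melinoe table and 393 of only the riboflavin table had no read in Col-0 and were set to 0 where not listed. AT1G30710 is one of them, listed in the melinoe table only. Of the deposited expected counts 1.904% were not whole, and all were rounded. Shared reads are divided by estimation in expected counts, which bears on close copies. Levels are TPM computed here from these counts and the longest annotated transcript of each gene, without the 702 genes with no annotated length, which held at most 0.145% of counts. The 12 deposited TPM columns of single libraries were not used here, and the planned levels from deposited TPM were replaced in this way. The deposited mean TPM of each group are the authors' means. Coordinates and sequences are from TAIR10.1, to which all loci matched. The files carry no coordinates.

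Counts were tested with edgeR 4.0.16 in R 4.3.3 by the quasi-likelihood F test, with TMM scaling, filterByExpr (minimum count 10, minimum total 15), a prior count of 0.125 and Benjamini-Hochberg adjustment over all genes tested. Each comparison with Col-0 used its own 6 libraries, and melinoe against riboflavin used all 9. The SE is the log2 fold change divided by the square root of F. CPM are on the TMM scale. Alternatives were DESeq2 1.42.0, DESeq2 size factors, upper quartile scaling, no filter, a mean of at least 50 counts, all 9 libraries or only the 6 compared, the column letter as a block, each library left out, a log2 fold change of at least 1, limma-trend (limma 3.58.1) on log2(TPM + 1) with a mean of at least 1 TPM, CPM per kb and the authors' mean TPM. The code was tested on simulated counts.

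The members and gene lists were chosen with earlier results of these data known. Genes named are all members, the 3 highest and 3 lowest called with riboflavin in each other list (marker lists are not under this rule), list genes beside a member, and the 5 nearest patterns to AT1G26390 and to AT4G20860, which is the member with the highest mean TPM, among genes averaging 100 counts or more and taken with a prior count of 2. Other genes are said to be named after their values were seen. No label ties the column letters A to C to a replicate number. P-values weigh a difference between groups against the spread between libraries within groups, and counting errors cover counting only.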

Additional observations from a re-analysis of the deposited data

How the results depend on the processing

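No called direction reversed. AT4G20860 in melinoe against riboflavin, 0.02 and described without a test, had no stable sign: it ran from -0.008 to 0.055 over the alternatives and was below 0 without melinoe B and without riboflavin C. For single members, 107 of 112 alternative values with riboflavin against Col-0 kept their direction and call. The other 5 were all AT4G20840: 0.16 with DESeq2 (adjusted p = 0.0874), 0.09 with upper quartile scaling (0.175), 0.13 without riboflavin B (0.107), 0.16 without riboflavin C (0.0504) and 0.13 without Col-0 B (0.100). Members called were 8, and 7 with DESeq2 or upper quartile scaling, 7 to 8 when 1 library was left out and 6 at a log2 fold change of at least 1.

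The median member log2 fold change moved to 2.27 in melinoe and 1.21 in riboflavin with limma-trend on log2(TPM + 1), a scale that understates the change of low genes, and 7 of the 112 single-member values in melinoe moved, all under that setting. For melinoe against riboflavin it was 0.97 with upper quartile scaling and 0.91 to 0.96 when 1 library was left out, against 0.93. Summed member level was 338 in melinoe, 198 in riboflavin and 86.9 in Col-0 as CPM per kb of transcript, another scale, and 452, 273 and 121 TPM by the means of the authors' deposited table, an alternative added after the data were seen, as was limma-trend on the TPM computed here. The planned limma-trend on deposited TPM was not run. Genes called in all were 8302 with DESeq2 and 10254 with edgeR in melinoe, and 13753 and 15100 in riboflavin.

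With the replicate block by column letter, 15034 genes and 8 members were called with riboflavin, and 10428 genes in melinoe. Libraries with the same letter did not deviate together, with correlations across genes of -0.0234 to 0.0379. No pairing by letter was thus seen across genes, which does not settle it for single genes. Depth limits AT1G26400 and AT1G30710, and 26 to 40 counts a library limit the Col-0 levels of AT1G26390 and AT1G26410.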

Other observations

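The 13 nearest protein-coding genes outside the family, 2 on each side of a cluster and those inside it, included 11 that were tested. In melinoe 1 of them was higher and 5 lower, with log2 fold changes from -0.68 to 0.89. Of all genes tested there, 50.6% were called and 25.4% were called higher. With riboflavin 5 were higher and 3 lower, with log2 fold changes from -0.80 to 1.16, where 74.2% of all genes were called and 36.8% were called higher. AT1G30755, annotated as a putative elongation factor, had higher log2 fold changes than the member AT4G20840 in both comparisons, 0.89 in melinoe (adjusted p = 7.75e-13) and 1.16 with riboflavin (adjusted p = 2.61e-16, both edgeR). TPP2, a tripeptidyl peptidase gene between AT4G20840 and AT4G20860, was -0.00 in melinoe (adjusted p = 0.952) and 0.76 with riboflavin (adjusted p = 6.49e-17, both edgeR). UPS5, a ureide permease gene beside AT1G26420, was -0.12 in melinoe (adjusted p = 0.0798) and 0.71 with riboflavin (adjusted p = 4.29e-13, both edgeR).

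Other FAD-linked oxidases, which oxidise cytokinins, gulonolactone or galactonolactone or act in sterol synthesis, were more often lower than higher with riboflavin. Of 16 listed genes, 14 were in the tables and 12 were tested. With riboflavin 2 were higher and 7 lower (median log2 fold change -0.51), and in melinoe 4 were higher and 5 lower (median -0.02). Over all genes tested, 74.2% were called and 36.8% called higher with riboflavin, and 50.6% and 25.4% in melinoe. CKX5, CKX1 and CKX7, cytokinin oxidase genes, fell with riboflavin by 2.09, 1.58 and 0.96 on the log2 scale (adjusted p = 7.86e-16, 6.86e-12 and 1.72e-09, edgeR). CKX4 and GulLO5 rose by 1.19 and 0.48 (adjusted p = 3.16e-07 and 2.68e-05, edgeR). GulLO2, named after its values were seen, had 61.5 ± 2.54 TPM in melinoe, 23.7 ± 1.02 TPM in riboflavin and 29.2 ± 0.615 TPM in Col-0 (SD, n = 3 each).

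FRK1, a receptor-like kinase gene induced by flagellin and named here for its pattern after its values were seen, was higher by 4.01 in melinoe (adjusted p = 5.18e-26) and fell with riboflavin by 0.67 (adjusted p = 0.000613, both edgeR). The log2 difference of melinoe from riboflavin was 4.69 for FRK1 (adjusted p = 5.81e-29, edgeR). FRK1 belongs to the 17 genes of the elicitor and wall-fragment response, of which 8 were higher and 5 lower in melinoe (median 0.10). Of all genes tested there, 50.6% were called and 25.4% called higher. Among the lower were WRKY40 at -1.52, PGIP2 at -1.50, WRKY33 at -0.85 and MPK3 at -0.51. PGIP2, WRKY33 and MPK3 are also named after their values were seen.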
